A study of Mus musculus with 20 samples.

Results

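Replacement histone variants are the histones that a cell builds into chromatin outside of DNA replication, and 10 of their genes were followed here in the hippocampus of mice infused with small RNAs (sRNAs). The genes are H3f3a and H3f3b (histone H3.3), H2afz and H2afv (H2A.Z), H2afx (H2A.X), H2afy and H2afy2 (macroH2A), H2afj (H2A.J), and H1f0 and H1fx (linker histones). They are 10 of the 25190 genes in the count table. H3f3a, H3f3b and H1f0 carry these symbols there, and the other 7 are listed under newer symbols (H2az1, H2az2, H2ax, Macroh2a1, Macroh2a2, H2aj and H1f10) and were matched by gene identifier. The set was drawn up around H3f3a, which was chosen by its measured counts, because it stood out as low in Pool 1 mice compared with Control mice. For that reason the values of Pool 1 and Control mice are given as a description, without a p-value, for all members. A test of H3f3a is reported only between Pool 2 and Vehicle mice, whose libraries had no part in its choice, and its place above or below a threshold in other comparisons is a description.

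DNA is wound around nucleosomes made of H2A, H2B, H3 and H4, and a linker histone H1 sits where the DNA enters and leaves. The bulk of these proteins comes from replication-dependent genes that are transcribed while DNA is copied, and their mRNAs end without a poly(A) tail. Replacement variants mostly come from separate genes with polyadenylated mRNAs that are transcribed at any time. In neurons, which no longer divide, they are therefore the supply with which old nucleosomes are renewed. H3.3 takes the place of H3 in transcribed genes, at enhancers and at telomeres, and it accumulates in neurons with age.

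RNA was sequenced from 20 wild-type male C57BL/6JOlaHsd mice, 4 months old, with 5 mice in each of 4 groups. All mice carried cannulas in the CA1 of the dorsal hippocampus. Vehicle mice were infused with artificial cerebrospinal fluid, Control mice with sRNAs pooled from the hippocampus of people without psychiatric illness, and Pool 1 and Pool 2 mice with sRNAs pooled from separate cohorts of patients with schizophrenia. The mice of a group shared 1 preparation of sRNAs, so a group stands for 1 pool and not for several donors, and tissue was taken 24 hours after the last behavioural test. The study's methods call this tissue hippocampus, and the deposited design text calls it CA1.

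Total counts per library were 20588280 to 25543939. Marker lists of neurons (pan-neuronal, CA1, CA3, dentate granule cells and interneurons), glia and vessels were all detected, and so were those of choroid plexus and thalamus, which lie beside the hippocampus. Pool 2 replicate 1 stood apart, with a sum of 865 CPM (counts scaled to library size) over 8 microglial genes, against a median of 359 in its group. The summed level of 4 choroid plexus genes ranged from 91.0 to 8856 CPM over all libraries, with the highest value in a Vehicle mouse. The list of RNAs without a poly(A) tail or with rRNA-like reads had 6 of its 8 genes in the table and none of them at 0. It summed to 572 to 1852 CPM in Control mice, 665 to 5150 in Vehicle mice, 1764 to 14083 in Pool 1 mice and 3456 to 9605 in Pool 2 mice. In tissue RNA, a lower level may mean fewer cells of a type or less RNA per cell, and these cannot be told apart.

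The sequences of the paired genes come first, because they set what a count of each gene can measure. Reads were 50 bases long and only reads with a single place in the genome were counted. H3f3a and H3f3b each have 411 coding bases, of which 316 (76.9%) are identical, and they encode the same 136 residues. The first 50 coding bases are printed 5′ to 3′ on the coding strand, in lower case with capitals at the 10 positions where the partner gene has another base.
H3f3a: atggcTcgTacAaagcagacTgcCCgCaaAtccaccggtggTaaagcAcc
H3f3b: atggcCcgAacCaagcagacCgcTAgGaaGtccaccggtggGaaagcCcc
The first lies in exon 2 of H3f3a, at chr1:180811877-180811926 (GRCm38, minus strand), and the second in exon 4 of the H3f3b transcript used, at chr11:116023960-116024009 (minus strand). The longest stretch that both coding sequences share is 23 bases and no window of 50 bases is common to them, so a full-length read from within one coding sequence does not match the other exactly.

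H2afz and H2afv each have 387 coding bases, of which 306 (79.1%) are identical, and 125 of their 128 residues are the same. Their first 50 coding bases are shown in the same way, again with 10 differences.
H2afz: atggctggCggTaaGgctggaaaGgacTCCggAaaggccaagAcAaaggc
H2afv: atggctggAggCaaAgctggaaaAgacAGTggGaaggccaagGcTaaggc
Both runs cross from exon 1 into exon 2, between 137864694 and 137865179 on chromosome 3 for H2afz (plus strand) and between 6439407 and 6444339 on chromosome 11 for H2afv (minus strand). The longest stretch in common is 14 bases, and no window of 50 bases is shared. The macroH2A genes lie further apart, with 261 of 387 aligned residues identical (67.4%).

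Copies in the transcripts of other genes were uneven among the members. Of the windows of 50 bases in the coding sequence of H3f3a, 92.8% also occur in the transcript of another annotated gene, processed pseudogenes included, as do 16.4% of the windows of its whole transcript. The first 50 coding bases printed above occur in 2 other genes. For H2afz the shares are 100% of the coding sequence and 69.6% of the transcript, with the printed window present in 3 other genes. The share in the coding sequence is 46.4% for H3f3b, 21.4% for H2afx, 13.3% for H2afy2 and 11.7% for H2afj. No window of H2afv, H2afy, H1f0 or H1fx is shared.

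A read that lies wholly in such a window may have more than 1 place to map and then would not be counted. This was not checked on aligned reads, and windows that cross an exon junction may map otherwise. The part of the transcript free of shared windows is mostly outside the coding sequence for H3f3a and is smallest for H2afz. The 10 processed pseudogenes of H3f3a in the table summed to 0.199 to 1.34 CPM per library, against at least 30.2 CPM for H3f3a itself. H3f3a overlaps H3f3aos, H2afy2 overlaps Aifm2, H2afy overlaps Gm47071, H1f0 overlaps Gm49544 and H1fx overlaps Gm5577, each annotated on the opposite strand. The libraries were stranded, but the strand setting of the count is not given in the sources used here, so reads of such partners cannot be told apart. The most counted genes that share at least 10 windows with a member were Tmcc1 (620 windows of H2afz), Smpd4 (39 of H3f3a), Pvt1 (44 of H2afy2), Hist1h2ac (82 of H2afx) and Gm20633 (74 of H2afx), and none of them reached a log2 fold change of 0.3 in size with an unadjusted p-value under 0.05 from edgeR in any comparison of the groups.

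**Figure D1:**
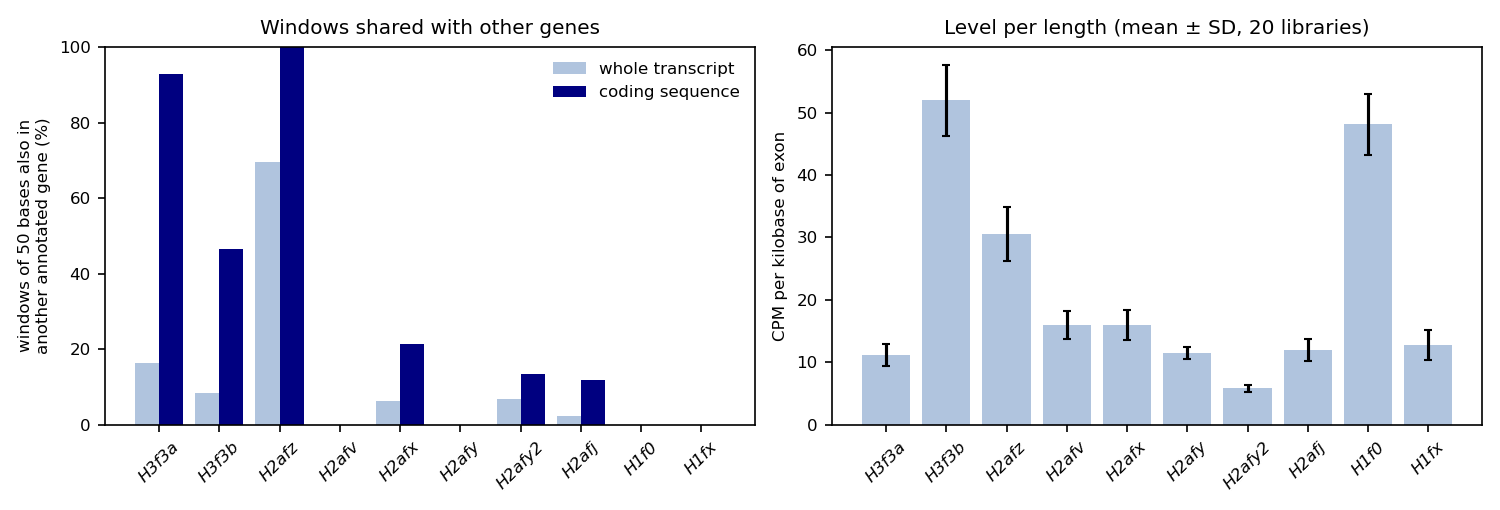
Left, the share of windows of 50 bases that also occur in another annotated gene, for the whole coding transcript and for the coding sequence of each gene, as percent. Right, the level of each gene as CPM per kilobase of exon, as mean ± SD over 20 libraries; H3f3b and H1f0 are highest, and H2afz has all of its coding windows in other genes.

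H3f3b was the most abundant member when levels were set per length, at 52.0 ± 5.66 CPM per kilobase of exon (SD, n = 20 libraries), followed by H1f0 at 48.1 ± 4.92 and H2afz at 30.5 ± 4.39. H3f3b was above H1f0 in 17 of the 20 libraries, and H1f0 was above H2afz in all 20. H2afx (15.96 CPM per kilobase) and H2afv (15.93) did not separate, with H2afx the higher in 9 of 20 libraries. H1fx (12.7), H2afj (11.97), H2afy (11.4) and H3f3a (11.1) followed within their spread of each other, H2afy being above H3f3a in only 11 of 20 libraries. H2afy2 was lowest at 5.84 ± 0.557 CPM per kilobase, below H3f3a in every library. The order depends on the length used, since with the longest transcript in place of all annotated exons H3f3a moved to 13.7, H3f3b to 61.5, H2afz to 50.7 and H2afy to 19.3 CPM per kilobase. Reads within the shared windows may not have been counted, so the levels of H3f3a and H2afz may be understated.

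The 2 genes of H3.3 were unequal at the RNA level. H3f3a supplied 22.4% ± 2.84 (SD, n = 5) of the summed CPM of H3f3a and H3f3b in Control mice, 19.2% ± 1.38 in Pool 1 mice, 19.7% ± 1.81 in Pool 2 mice and 19.3% ± 1.96 in Vehicle mice. The sum of both genes was 207 ± 22.4 CPM in Control mice, 177 ± 16.9 in Pool 1 mice, 199 ± 16.9 in Pool 2 mice and 191 ± 18.3 in Vehicle mice. The ranges of the sum overlapped between all groups. The shares are not set per length, and reads in shared windows may be missing more from H3f3a than from H3f3b. H3f3a was chosen on its Pool 1 and Control values, so the difference in share between these groups is a description.

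H3f3a (chromosome 1, 180800832 to 180813943, minus strand) was measured with 674 to 1275 counts per library. In Control mice it had 45.2, 50.6, 48.2, 35.4 and 51.1 CPM in replicates 1 to 5, and in Pool 1 mice 32.3, 30.2, 36.6, 37.2 and 33.5 CPM. Of the Pool 1 mice, 3 lay below every Control mouse, and the overlap came from Control replicate 4, whose 35.4 CPM fell inside the Pool 1 range. The means were 46.1 ± 6.41 CPM in Control mice and 34.0 ± 2.93 in Pool 1 mice (SD, n = 5), a log2 fold change of −0.44 (standard error 0.10), the contrast for which the gene was chosen.

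Vehicle mice, which received no sRNAs, had 33.3, 36.5, 32.9, 43.2 and 38.0 CPM of H3f3a, and Pool 2 mice had 40.3, 32.9, 41.2, 44.2 and 37.2 CPM. The means of both groups lay between those of Pool 1 and Control mice, at 36.8 ± 4.18 CPM in Vehicle and 39.1 ± 4.29 CPM in Pool 2 mice (SD, n = 5). Of the Control mice, 4 lay above every Vehicle mouse. The log2 fold change of H3f3a was 0.33 in Control compared with Vehicle mice, −0.11 in Pool 1 compared with Vehicle mice, −0.24 in Pool 2 compared with Control mice and 0.20 in Pool 2 compared with Pool 1 mice, with a standard error of 0.10 each. These comparisons share libraries with the one used to choose the gene and are a description.

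In Pool 2 compared with Vehicle mice, the comparison that shares no library with the choice of H3f3a, its log2 fold change was 0.09 (95% interval −0.12 to 0.30). The difference was within the spread between mice, with p = 0.389 from edgeR (adjusted 0.955) and p = 0.373 in an exact two-sided permutation test. The interval includes a change of 0.30 at its upper end and leaves out one of the size seen between Pool 1 and Control mice. Without Vehicle replicate 4 and Pool 2 replicate 1, the log2 fold change was 0.14, and that of Pool 1 against Control mice stayed at −0.44.

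**Figure D2:**
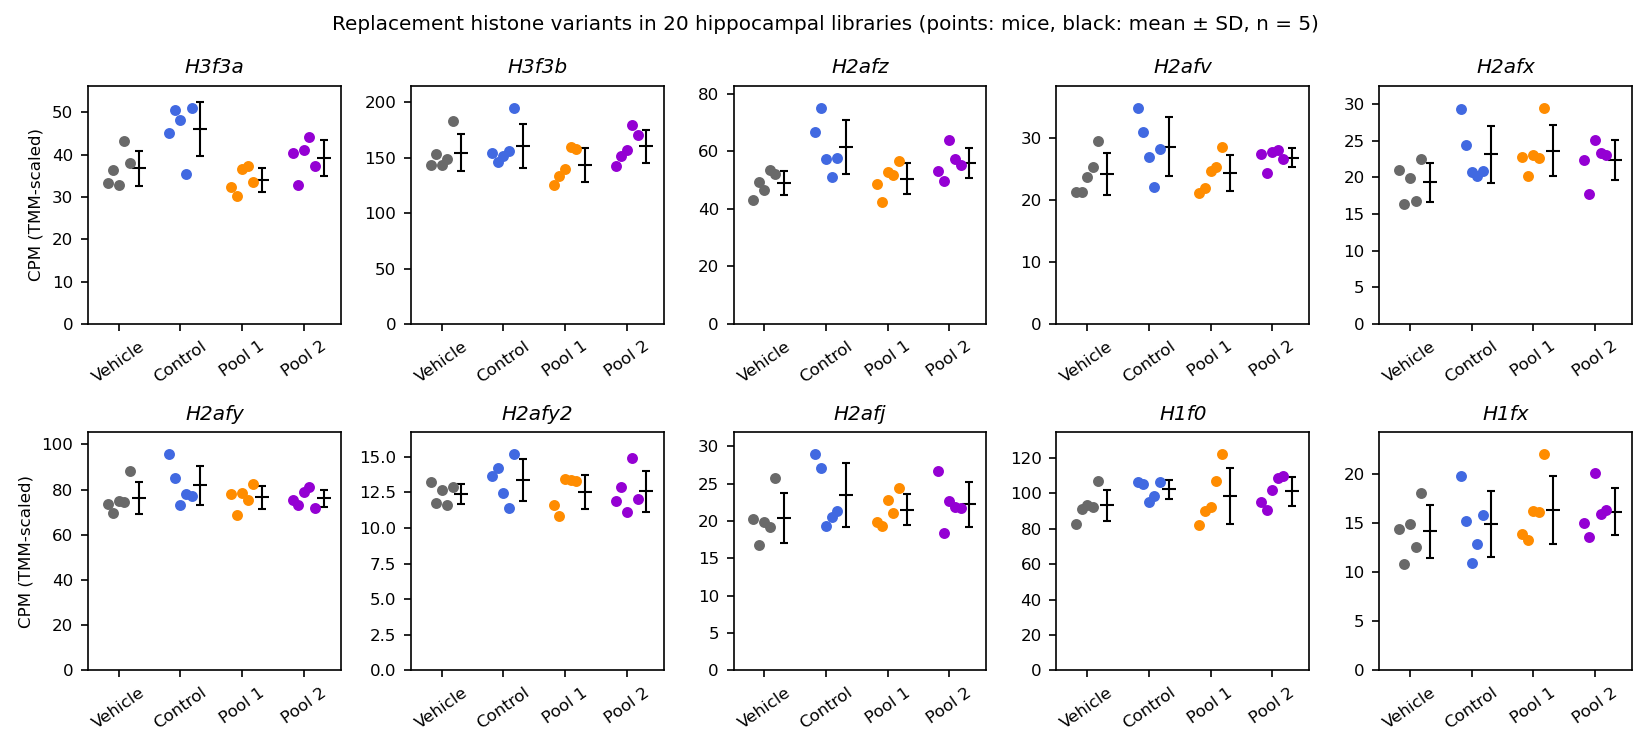
Expression of the 10 genes in CPM scaled by library size (vertical axis from 0), with 1 point per mouse for Vehicle, Control, Pool 1 and Pool 2 mice and black marks for mean ± SD (n = 5). H3f3a has 4 Control mice above every Vehicle mouse and 1 Control mouse at 35.4 CPM among the Pool 1 mice, and every pair of groups overlaps for every gene.

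H3f3b (chromosome 11, 116021912 to 116027962, minus strand) encodes the same protein as H3f3a from a separate gene. It had 144, 153, 143, 149 and 183 CPM in Vehicle mice and 154, 146, 151, 156 and 195 CPM in Control mice. In both groups replicate 5 was well above the other 4 mice, which lay close together. Pool 1 mice had 126, 134, 139, 160.0 and 158 CPM and Pool 2 mice 143, 151, 157, 179 and 171 CPM, overlapping widely with each other and with the remaining groups.

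The log2 fold change of H3f3b in Pool 1 compared with Control mice was −0.16 (standard error 0.10). None of the tested comparisons of H3f3b passed an unadjusted p-value of 0.05 in edgeR. The nearest was Pool 2 compared with Pool 1 mice, with a log2 fold change of 0.16 (95% interval −0.04 to 0.36; unadjusted p 0.108 and adjusted p 0.701 in edgeR). Pool 2 and Control mice had nearly equal means, 160.2 ± 14.7 and 161 ± 19.7 CPM, with a log2 fold change of −0.0026 (95% interval −0.20 to 0.20).

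A gene was past the threshold when its log2 fold change reached 0.3 in size and its unadjusted p-value in edgeR was under 0.05, with all 25190 genes in the fit. In no comparison did any gene of the table pass an adjusted p-value of 0.05 in edgeR, while 1314 to 2146 genes had an unadjusted p-value under 0.05. In Pool 1 compared with Control mice, 1 of the 10 members (H3f3a) was past the threshold, beside 3.48% of all genes, a count that follows from how the set was chosen. It was 2 when Control replicate 3, Control replicate 5 or Pool 1 replicate 3, 4 or 5 was left out, with H2afz added, and 3 without Control replicate 4, with H2afz and H2afv. In Control compared with Vehicle mice 2 of 10 were past it, H3f3a and H2afz, both higher in Control mice, beside 1.7% of all genes in that direction and 5.1% in either. The high H3f3a values of these Control mice had a part in its choice, so its place in this count is no test and only H2afz, 1 of the 9 other members, is left beside that share. H2afz rose and fell with H3f3a across mice, so its place is not free of that choice either. In Pool 2 compared with Control mice the count was 0 beside 6.22% of all genes, and 1 without Control replicate 4 (H3f3a, log2 fold change −0.33, a description for the same reason). In Pool 1 compared with Vehicle mice it was 0 beside 5.34%, in Pool 2 compared with Vehicle mice 0 beside 4.69%, and in Pool 2 compared with Pool 1 mice 0 beside 6.82%. No member had groups free of overlap in any comparison. Over all genes, the groups did not overlap in 0.861% of genes for Pool 1 against Control mice, 1.05% for Pool 2 against Control, 0.607% for Control against Vehicle, 0.897% for Pool 1 against Vehicle, 0.75% for Pool 2 against Vehicle and 1.41% for Pool 2 against Pool 1.

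**Figure D3:**
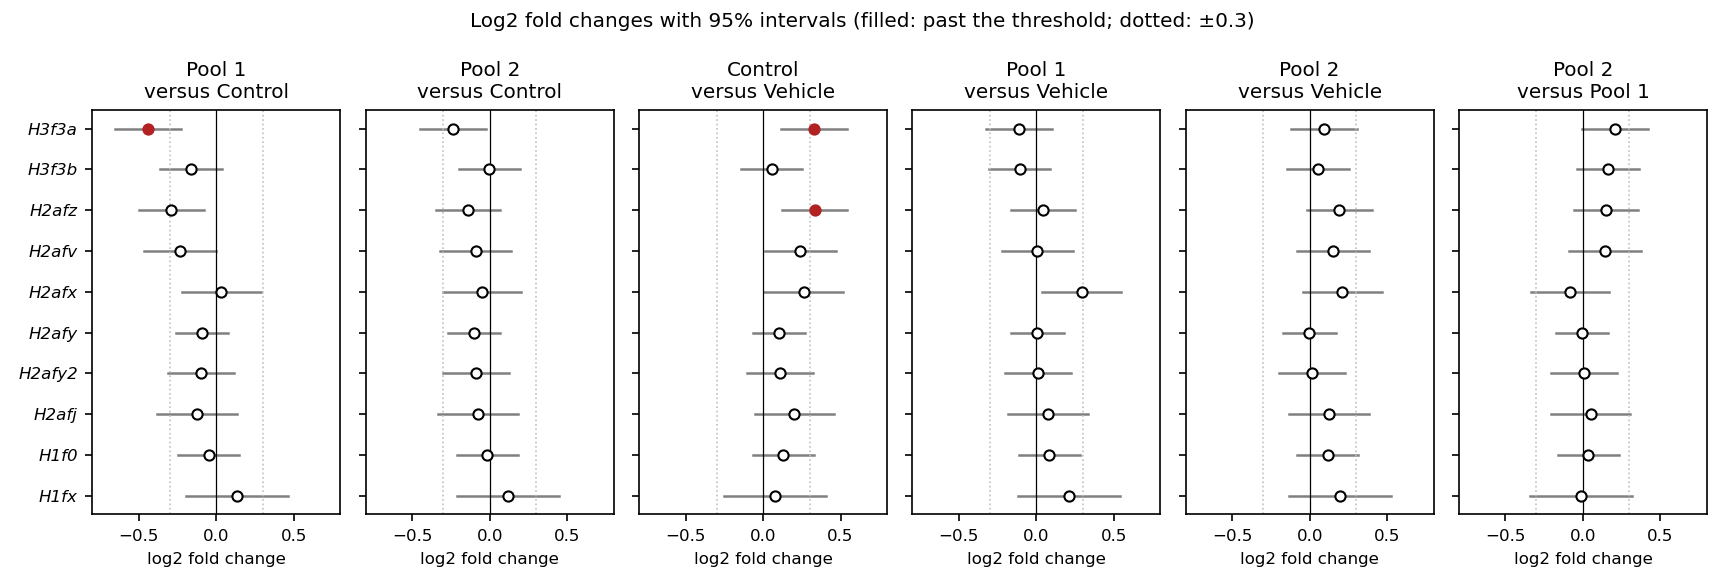
Log2 fold changes of the 10 genes in each of the 6 comparisons, with 95% intervals from edgeR as horizontal bars, dotted lines at ±0.3 and filled points past the threshold. The filled points are H3f3a at −0.44 in Pool 1 versus Control, and H3f3a and H2afz at 0.33 each in Control versus Vehicle, those of H3f3a being a description of the gene's choice.

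H2afz and H2afv encode the H2A.Z proteins, which mark nucleosomes next to transcription start sites and are known to turn over in the hippocampus during memory formation. H2afz (chromosome 3, 137864487 to 137866922, plus strand) had 43.1, 49.4, 46.7, 53.7 and 52.0 CPM in Vehicle mice and 66.8, 75.2, 57.4, 51.2 and 57.6 CPM in Control mice. Of the Control mice, 4 were above every Vehicle mouse and replicate 4, the Control mouse that was also lowest in H3f3a, was inside the Vehicle range. The log2 fold change was 0.33 (standard error 0.10; p = 0.00303 from edgeR, adjusted 0.734), and an exact two-sided permutation test gave p = 0.0238. H2afz followed H3f3a across the 20 libraries (r = 0.80), and these Control libraries had a part in choosing H3f3a. Both p-values are therefore not free of that choice. The result rested in part on Control replicate 2, since without it the log2 fold change was 0.25 and under the threshold. Without Vehicle replicate 1 it also fell short of the threshold, at a value that rounds to 0.30.

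In Pool 1 mice H2afz had 48.5, 42.3, 52.8, 51.9 and 56.6 CPM, a log2 fold change of −0.29 compared with Control mice (standard error 0.10), in the contrast that was used for the choice. In Pool 2 mice it had 53.2, 49.7, 64.0, 57.4 and 55.3 CPM, 3 of them above every Vehicle mouse. The log2 fold change of Pool 2 against Vehicle mice was 0.19 (95% interval −0.02 to 0.40), with an unadjusted p-value of 0.0695 and an adjusted p-value of 0.907 from edgeR. An exact two-sided permutation test gave p = 0.0556, so this difference was not beyond the spread between mice.

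H2afv (chromosome 11, 6427229 to 6444443, minus strand) had 24.2 ± 3.38 CPM in Vehicle mice, 28.6 ± 4.72 in Control mice, 24.3 ± 2.92 in Pool 1 mice and 26.9 ± 1.54 in Pool 2 mice (SD, n = 5). Single mice ranged from 22.2 to 34.9 CPM in the Control group, with replicate 4 again the lowest, and from 21.3 to 29.5 CPM in the Vehicle group. The log2 fold change of Control against Vehicle mice was 0.24 (standard error 0.11), under the size threshold. Its unadjusted p-value was 0.0410 and its adjusted p-value 0.739 from edgeR, and an exact permutation test gave p = 0.143. H2afv also followed H3f3a across mice (r = 0.70), so these p-values are not free of the choice of H3f3a either. In Pool 1 compared with Control mice the value was −0.23 as a description, and in Pool 2 compared with Vehicle mice it was 0.15 (unadjusted p-value 0.193 from edgeR).

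H2afx (chromosome 9, 44334694 to 44336077, plus strand) encodes H2A.X, the H2A that is phosphorylated around DNA double-strand breaks. Vehicle mice had 20.98, 16.3, 19.9, 16.8 and 22.4 CPM, Control mice 29.3, 24.4, 20.7, 20.2 and 20.9, Pool 1 mice 22.7, 20.2, 23.0, 22.7 and 29.5, and Pool 2 mice 22.4, 17.8, 25.1, 23.3 and 23.1. Vehicle mice were the lowest group, with 4 of 5 Pool 1 mice above all of them, and the 3 groups that received sRNAs overlapped with each other. The log2 fold change of Pool 1 against Vehicle mice was 0.29 (standard error 0.12), just under the size threshold. Its unadjusted p-value was 0.0254 and its adjusted p-value 0.702 from edgeR, with p = 0.0476 in an exact two-sided permutation test. Without Vehicle replicate 1, 3 or 5 or Pool 1 replicate 1, 2, 3 or 4, the value was 0.30 to 0.35, past the threshold. Over all fits with 1 library left out it ranged from 0.20 to 0.35, so it also moved further below the threshold. It was 0.30 with DESeq2, 0.30 with DESeq2's size factors and 0.32 with the filterByExpr filter, past the threshold as well. Control against Vehicle mice gave 0.26 (p = 0.0444 from edgeR, adjusted 0.740; exact permutation test, p = 0.119) and Pool 2 against Vehicle mice 0.21 (unadjusted p 0.101 and adjusted p 0.907 in edgeR).

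The macroH2A genes, whose products carry a macro domain and are known from repressed chromatin and the inactive X chromosome, had log2 fold changes close to 0. H2afy (chromosome 13, 56073619 to 56136361, minus strand) had 76.3 ± 6.90 CPM in Vehicle mice, 81.8 ± 8.84 in Control, 76.6 ± 5.03 in Pool 1 and 76.2 ± 3.85 in Pool 2 mice (SD, n = 5). H2afy2 (chromosome 10, 61738665 to 61784147, minus strand) had 12.4 ± 0.705, 13.4 ± 1.46, 12.5 ± 1.21 and 12.5 ± 1.46 CPM in the same groups. Their log2 fold changes lay between −0.10 and 0.11 in all 6 comparisons, with 95% intervals that reached at most 0.32 in size.

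H2afj (chromosome 6, 136808244 to 136810074, plus strand), a variant whose protein differs little from replication-dependent H2A, had 20.4 ± 3.31 CPM in Vehicle, 23.5 ± 4.28 in Control, 21.5 ± 2.08 in Pool 1 and 22.3 ± 3.00 in Pool 2 mice (SD, n = 5). Its largest tested log2 fold change was 0.20 in Control compared with Vehicle mice (95% interval −0.05 to 0.46, unadjusted p-value 0.117 from edgeR). Control replicates 1 and 2 had 29.0 and 27.1 CPM, above every Vehicle mouse, and the other 3 Control mice had 19.4 to 21.4.

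H1f0 (chromosome 15, 79028450 to 79030504, plus strand) encodes H1.0, the linker histone that builds up in cells that have stopped dividing. It had 93.3 ± 8.84 CPM in Vehicle, 102 ± 5.28 in Control, 98.8 ± 15.8 in Pool 1 and 101 ± 8.36 in Pool 2 mice (SD, n = 5). Pool 1 mice spread most, from 82.2 CPM in replicate 1 to 122 in replicate 5, and no tested comparison passed an unadjusted p-value of 0.05 in edgeR. H1fx (chromosome 6, 87980421 to 87981637, minus strand), the gene of the linker histone H1.10, has the most GC-rich transcript of the members, at 71.3% GC. Its levels were 14.2 ± 2.71 CPM in Vehicle, 14.9 ± 3.37 in Control, 16.4 ± 3.44 in Pool 1 and 16.2 ± 2.41 in Pool 2 mice. With a standard error of 0.16 it was the least precise member, and its tested log2 fold changes of −0.01 to 0.21 were all within the spread between mice.

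Across the 10 members, all 10 log2 fold changes of Control against Vehicle mice were above 0, with a median of 0.17, whereas the median over all genes was −0.01 and 46.8% of all genes were above 0. Compared with Control mice, 8 members were lower in Pool 1 (median −0.11, all genes −0.01) and 9 in Pool 2 (median −0.08, all genes 0.0029). These comparisons share the Control mice and are not independent of each other, and H3f3a, chosen on them, is inside each count. Genes with a mean count of at least 100 had a median of 0.0056 in Control against Vehicle mice, with 51.9% above 0. Against Control mice, their median was −0.0066 in Pool 1 (47.9% above 0) and −0.02 in Pool 2 (43.1% above 0). Compared with Vehicle mice, 8 members had a log2 fold change above 0 in Pool 1 (median 0.03, all genes −0.01) and 9 in Pool 2 (median 0.12, all genes 0.01). Between the pools, 7 members were higher in Pool 2 (median 0.04, all genes 0.02).

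By group means, Control mice were the highest group in 7 of the 10 members and Vehicle mice the lowest in 8. Among the 12099 genes with a mean count of at least 100, Control mice were the highest group in 28.8% and Vehicle mice the lowest in 24.9%. The members are related in their levels across mice, so these are counts of a description and not 10 separate results. Control mice were also the group with the lowest summed level of RNAs without a poly(A) tail or with rRNA-like reads, with a median of 1011 CPM against 1946 in Vehicle, 6246 in Pool 1 and 6139 in Pool 2 mice. The part of these RNAs in the differences between groups was not tested.

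The count in Control compared with Vehicle mice, H3f3a included, depended on single mice. Left out one at a time, the libraries gave between 0 and 5 members past the threshold in place of 2. The count was 0 without Control replicate 2, and it was 1 without Vehicle replicate 1, Vehicle replicate 3 or Control replicate 5. It was 5 without Vehicle replicate 5 and 4 without Control replicate 4. The share of all genes past the threshold in these fits is not given here, so nothing is read from the higher counts. In Pool 2 compared with Vehicle mice and in Pool 2 compared with Pool 1 mice, the count was 0 in every one of these fits. Without Vehicle replicate 4 and Pool 2 replicate 1 together, the number of members past the threshold was the same as with all 20 libraries in each of the 6 comparisons.

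Across the 20 libraries, H3f3a had its highest correlations within the set with the H2A.Z genes, and those with H3f3b were lower, a difference that was not tested. The libraries include those by which H3f3a was chosen, so the 9 relations are a description without p-values. On log2 CPM, Pearson's r with H2afz was 0.80 and Spearman's rho was 0.88. With H2afv, r was 0.70 and rho was 0.76. Values centred on the group means left r at 0.69 for H2afz and 0.60 for H2afv. Without Control replicates 5 and 2, the libraries farthest from the median of H3f3a, r was 0.77 and 0.67. Within single groups of 5 mice, r with H2afz was 0.61 to 0.89 and r with H2afv was 0.49 to 0.97.

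With H3f3b, which encodes the same protein, r was 0.48 and rho was 0.47. Centred on the group means, r with H3f3b was 0.35. The value for H2afy2 was 0.50 (rho 0.46) and rested in part on Control replicates 5 and 2, since without them it was 0.26. Centred on the group means, r with H2afy2 was 0.44. Within single groups it ran from −0.69 in Vehicle mice to 0.90 in Pool 1 mice. For H2afx and H1fx r was 0.18 and 0.05 (rho 0.31 and 0.23). For H2afy, H2afj and H1f0 r was 0.40 each, with rho of 0.40, 0.47 and 0.52, so by rank H1f0 was above H3f3b. As a background, r of H3f3a with 12089 other genes of mean count at least 100 had a median of −0.01, and 90% of these genes lay between −0.49 and 0.59.

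**Figure D4:**
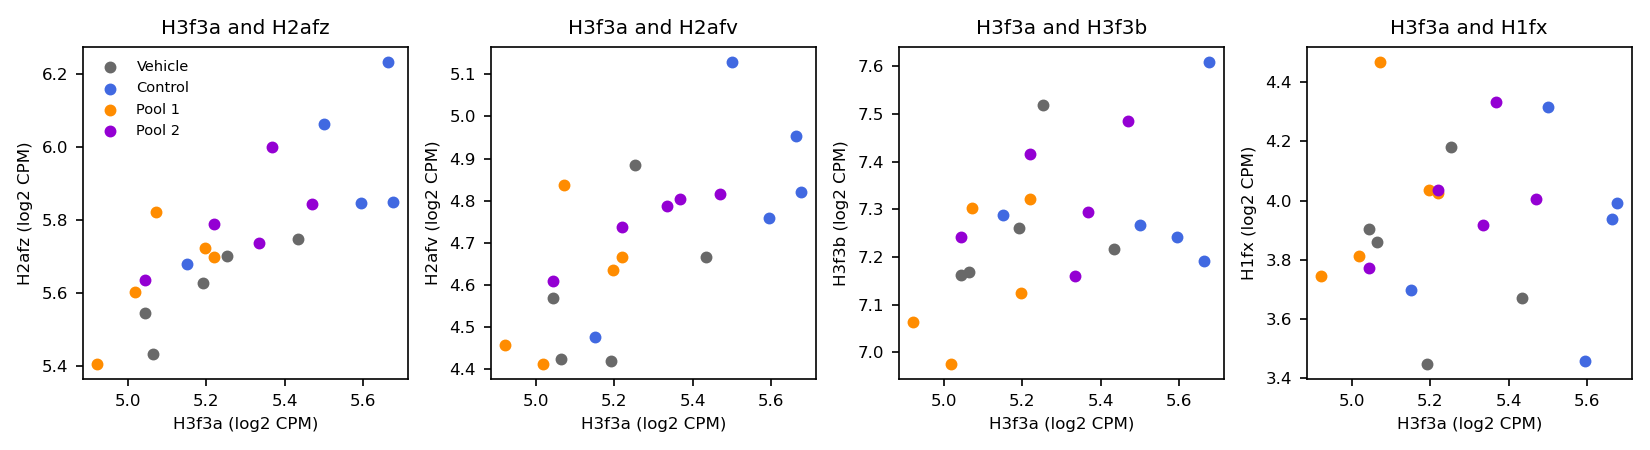
Log2 CPM of H3f3a (horizontal axis) against log2 CPM of H2afz, H2afv, H3f3b and H1fx (vertical axes), 1 point per mouse, coloured by group. H2afz and H2afv rise with H3f3a (r of 0.80 and 0.70), H3f3b less closely (0.48) and H1fx least (0.05).

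Outside the members, the 5 genes whose log2 CPM followed H3f3a most closely over the 20 libraries were 2610001J05Rik (r = 0.92), Ptma (0.90), Cript (0.90), Ramac (0.87) and Acyp1 (0.85). Ptma encodes prothymosin alpha, an acidic nuclear protein that binds linker histones, and Ramac a cofactor of mRNA cap methylation. All 5 had their highest group mean in Control mice. Centred on the group means, r was 0.83, 0.79, 0.81, 0.90 and 0.75 in the same order. The genes were picked as the highest of 12089, so these values are a description.

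The proteins that carry and exchange these variants were followed as 58 genes, 53 of them measured. In Pool 1 compared with Control mice 2 were past the threshold, both lower, Asf1a and Cenpa. Of all genes, 1.99% were past it in that direction and 3.48% in either. Asf1a, a chaperone that hands H3 and H4 to the HIRA complex, had 9.33 ± 1.06 CPM in Pool 1 mice and 11.6 ± 1.54 in Control mice (SD, n = 5), a log2 fold change of −0.31 (standard error 0.11). Cenpa, the H3 variant of centromeres, was scarce, at 1.52 ± 0.188 CPM in Pool 1 and 2.08 ± 0.562 in Control mice, with a log2 fold change of −0.46 (standard error 0.20). As this is the contrast that H3f3a was picked on, both are given as a description. Neither call held when only the libraries of the compared groups were fitted, which gave 0 in place of 2. The count was 1 without Vehicle replicate 1, Control replicate 1, 2 or 3, or Pool 1 replicate 2.

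In Pool 2 mice none of the 53 genes was past the threshold against Control mice, beside 6.22% of all genes. None was against Vehicle mice either, beside 4.69%. Without Control replicate 4, 2 were so against Control mice, and the share of all genes in that fit is not given here. By role, the 10 chaperones and readers of H3.3, which include Hira, Daxx and Atrx, had a median log2 fold change of −0.0042 in Pool 1 and −0.03 in Pool 2 compared with Control mice. The 19 genes of the H2A.Z exchange complexes, with Srcap, Ep400 and Anp32e among them, had −0.09 and −0.04, and the 6 kinases and readers of H2A.X had 0.08 and 0.0048. Of the 15 general histone chaperones, 13 were below 0 and 2 above in Pool 1 (median −0.06), and 14 were below and 1 above in Pool 2 (median −0.09), compared with the same Control mice and with none past the threshold. Of the genes with a mean count of at least 100, 47.9% were above 0 in Pool 1 and 43.1% in Pool 2. Compared with Vehicle mice, 9 of the 15 were below 0 in Pool 1 and 13 in Pool 2 (median −0.07 each). Of the genes with that mean count, 53.9% and 49.6% were above 0 there. In Pool 2 compared with Pool 1 mice 13 of the 15 were below 0 as well. Between the pools, Cenpa was higher in Pool 2 mice, with a log2 fold change of 0.62 (unadjusted p 0.00531 and adjusted p 0.353 in edgeR), and it was the only one of the 53 past the threshold there, beside 6.82% of all genes.

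The replication-dependent histone genes were read with few counts in these poly(A)-selected libraries, since only 5 of the 39 measured had a mean count of at least 100. In Pool 1 compared with Control mice 4 of the 39 were past the threshold, all lower. Of all genes, 1.99% were past it in that direction and 3.48% in either. In Pool 2 compared with Control mice none of the 39 was, beside 6.22% of all genes in either direction. These counts come from the edgeR fit only. The paper, which used DESeq2, lists H3c15, a gene of this class, as lower than Control in both pools at the same threshold. In Pool 1 compared with Vehicle mice 2 were past it as higher and 5 as lower, beside 5.34% of all genes in either direction. Of the remaining comparisons, Control against Vehicle mice had none, beside 5.1% of all genes in either direction. Pool 2 against Vehicle mice had 1 higher, beside 4.69%, and Pool 2 against Pool 1 mice had 2 higher, beside 6.82%. Their summed level was 64.5 to 85.9 CPM in Pool 1 mice and 78.4 to 112 CPM in Control mice. The 7 marker genes of dividing cells summed to 5.15 to 14.7 CPM over all libraries.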

How the data were processed

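The hippocampus of 20 mice was sequenced by bulk RNA-seq. The authors aligned single-end reads to GRCm38 with STAR, counted uniquely mapped reads per gene (GENCODE M20 in the study's methods) and deposited raw counts, with the sequencing rounds of a library summed and genes with a total under 10 left out. The submitters' processing notes also name FastQC 0.11.5. Other files of the series were not analysed here.

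Counts were scaled by TMM and tested with edgeR 4.0.16 (robust quasi-likelihood test, run in R 4.3.3), with all 4 groups, 20 libraries and 25190 genes in 1 fit, with Benjamini-Hochberg adjustment over all genes. CPM are counts set against the TMM-adjusted library size, and log2 CPM used a prior count of 2. Library totals of 20588280 to 25543939 counts give members standard errors of 0.08 to 0.16 on the log2 scale. The labels number the libraries of a group without naming animals, so each was taken as 1 mouse and p-values measure the spread between these libraries. Exact permutation tests of 5 against 5 mice were two-sided, with 0.00794 as their smallest p-value, computed with SciPy 1.17.1. Correlations of H3f3a were planned with a permutation test but are given without p-values, because its values chose it.

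The members, the lists of chaperones and markers, and the rules for naming genes were chosen with earlier results of these data known. Named were the 10 members, list genes past the threshold, the 5 most counted genes sharing windows and the 5 genes most correlated with H3f3a. Windows of 50 bases and coding sequences came from GENCODE M21 transcripts, which hold 97.7% of the table's gene identifiers, because no genome sequence was used here. Residue identities were computed from the translated coding sequences. The fits were tested on simulated counts for Pool 2 against Vehicle mice, with changes much larger than those reported here and 1 fixed spread. That test does not show how well small differences are found. Alternatives were DESeq2 1.42.0, its size factors, filters on low counts, fits of the compared groups only, a default estimate of the spread, a replicate block, 18 libraries (without Vehicle replicate 4 and Pool 2 replicate 1, which earlier work on these data set aside), and leaving out each library in turn.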

Additional observations from a re-analysis of the deposited data

Results flagged for a closer look

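H3f3b in Vehicle replicate 5 had 183 CPM, where the other 4 Vehicle mice had 143 to 153 CPM. The gap to the nearest mouse was 0.721 of the whole range of the group, above the critical value of 0.71 in Dixon's test for 5 samples.

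H3f3b in Control replicate 5 had 195 CPM, where the other 4 Control mice had 146 to 156 CPM, with a gap of 0.769 of the range. Of 40 groups of 5 mice tested over the 10 genes, these 2 were flagged. Chance flags about 1 group in 20 and the groups are not independent. Both mice lay at the high end of the H1f0 values of their groups as well, with 107 CPM in the Vehicle mouse and 106 CPM in the Control mouse. Replicate numbers do not pair mice across groups in these data, and a cause was not tested.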

How the results depend on the processing

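The number of members past the threshold was unchanged under DESeq2, DESeq2's size factors, both filters on low counts, the fit of the compared groups alone, the default estimate of the spread and the 18 libraries in 5 of the 6 comparisons. The exception was Pool 1 compared with Vehicle mice, where it rose from 0 to 1 with DESeq2, with DESeq2's size factors and with filterByExpr. The gene was H2afx, at 0.30, 0.30 and 0.32. The chaperone genes of Pool 1 compared with Control mice fell from 2 to 0 in the fit of the compared groups alone. Leaving out each library in turn gave 1 to 3 members in Pool 1 compared with Control mice, 0 to 1 in Pool 2 compared with Control mice, 0 to 5 in Control compared with Vehicle mice and 0 to 1 in Pool 1 compared with Vehicle mice. The chaperone counts ranged from 1 to 3 in Pool 1 and from 0 to 2 in Pool 2 compared with Control mice. The share of all genes past the threshold is not given for the fits without a library, and the causes were not tested.

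Levels per kilobase with the longest transcript were 13.7 for H3f3a, 61.5 for H3f3b, 50.7 for H2afz and 19.3 for H2afy. Of 1680 single-gene values under the alternatives, 74 had another sign than the first value, and each of those was past the threshold in neither fit, with a first value of at most 0.08 in size. DESeq2's size factors moved the median of all genes by at most 0.01.

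With the replicate number as a block, the counts of members were 1, 0, 2, 0, 0 and 0 in the order of Pool 1 and Pool 2 against Control, Control against Vehicle, Pool 1 and Pool 2 against Vehicle and Pool 2 against Pool 1, the same as without it. Same-numbered libraries of different groups did not deviate together (r from −0.47 to 0.37 over 30 pairs, 4 of 20 libraries closest to their own number), so the numbers are names.

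At 5 mice a group, differences under about 0.2 on the log2 scale stay within the 95% intervals of most members, and H1fx allows more. Loss of reads in the windows that H3f3a and H2afz share with other genes was not checked on aligned reads. The tissue is a mixture of cells.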
